A study of Mus musculus with 10 samples.

Results

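Immediate early response genes are the first genes that a cell switches on when a growth factor, a hormone or a stress reaches it. They need no newly made protein, because the transcription factors that act on their promoters are already present and are activated by kinases. Their mRNAs are short-lived, and many of their products are transcription factors of the AP-1 family or inhibitors that end the same signal. The set examined in mouse kidney held 10 genes: Fos, Fosb, Jun, Junb and Atf3, which encode leucine zipper proteins of or related to AP-1, Egr1, which encodes a zinc finger transcription factor, Ier2, Ier3, Dusp1 and Zfp36. Members were taken by symbol from the probe sets of the array, with the probe set of highest mean for each gene. All 10 had a probe set, and 9 of them were among the 11486 genes past the level filter, out of 18193 genes with a probe set. Fosb lay below that filter, which is a mean of 5.53 over the 10 arrays, the median of all probe sets that are not controls.

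Total RNA of the kidney cortex was measured in 10 mice of the FVB/N strain, aged 20 weeks, on 1 Affymetrix array each. A group of 5 mice received the renin inhibitor aliskiren (50 mg/kg per day). The other 5 mice received losartan (500 mg/l), an antagonist of the type 1 receptor for angiotensin II. All mice of both groups had undergone ablation of renal mass, given as 2/3 in the labels, followed by removal of a kidney (uninephrectomy). Treatment lasted 6 weeks with either drug and began when 6 weeks had passed since the ablation and 4 weeks since the nephrectomy. No untreated or unoperated mice were analysed here, so the comparison is between the drugs, aliskiren minus losartan, and neither drug's own effect can be read from it. All values are log2 expression values made by the authors with RMA, errors are SD over 5 mice, and the number of arrays limits the precision. Levels of different genes are not set against each other, since each probe set has its own scale.

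The promoters of these genes are known for motifs that bind the kinase-activated factors, among them the cAMP response element and the CArG box of serum response factor. RefSeq promoter windows on GRCm38.p6, from 250 bases before to 50 bases after the annotated start, were read for 8 members. Fos moved with Jun and Egr1 across mice, and Zfp36 was the member with a CArG box in the window. Dusp1 had a Pearson r between -0.48 and 0.25 with the other tested members, and Ier3 had the widest difference between the drugs. The windows of Fos, Zfp36, Dusp1 and Ier3 are shown. They lie at chr12:85473640-85473939 on the plus strand, chr7:28379179-28379478 on the minus strand, chr17:26508423-26508722 on the minus strand and chr17:35821463-35821762 on the plus strand. Capitals mark matches on either strand to the cAMP response element TGACGTCA and its core TGACG, the AP-1 site TGANTCA, the TATA box TATAAA, the Egr site GCGNGGGCG and the CArG box.
Fos: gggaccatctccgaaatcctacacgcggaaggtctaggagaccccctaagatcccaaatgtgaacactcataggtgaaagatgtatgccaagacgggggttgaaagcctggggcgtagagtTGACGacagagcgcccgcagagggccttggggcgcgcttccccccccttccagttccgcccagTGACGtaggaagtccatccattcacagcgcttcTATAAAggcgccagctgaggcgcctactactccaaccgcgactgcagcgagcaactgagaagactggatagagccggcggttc
Zfp36: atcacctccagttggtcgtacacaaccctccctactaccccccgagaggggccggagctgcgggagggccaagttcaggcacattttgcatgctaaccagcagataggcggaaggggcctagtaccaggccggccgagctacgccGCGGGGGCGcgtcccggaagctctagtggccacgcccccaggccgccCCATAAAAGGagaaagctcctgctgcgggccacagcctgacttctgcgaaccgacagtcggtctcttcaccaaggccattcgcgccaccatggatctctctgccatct
Dusp1: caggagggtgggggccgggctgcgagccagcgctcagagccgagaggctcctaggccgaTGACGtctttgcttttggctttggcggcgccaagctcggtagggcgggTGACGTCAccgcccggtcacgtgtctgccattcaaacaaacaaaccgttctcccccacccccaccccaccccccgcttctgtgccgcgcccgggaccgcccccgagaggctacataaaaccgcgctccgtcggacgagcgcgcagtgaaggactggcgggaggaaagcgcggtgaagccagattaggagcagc
Ier3: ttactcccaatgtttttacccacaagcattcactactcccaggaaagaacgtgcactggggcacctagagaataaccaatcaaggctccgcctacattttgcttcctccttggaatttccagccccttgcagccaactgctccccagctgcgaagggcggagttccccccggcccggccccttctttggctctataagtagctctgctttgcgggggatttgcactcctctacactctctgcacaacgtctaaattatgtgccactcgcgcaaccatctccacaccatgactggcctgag
The core TGACG, which is part of the full element as well, was found in 5 of the 8 windows (Atf3, Fosb, Junb, Fos and Dusp1), and in 20.8% of all 32851 windows of the same length. Dusp1 held the full element, found in 1.8% of all windows. The CArG box in Zfp36 overlapped no other match, and such a box was found in 1.6% of all windows. TATAAA was found in Fos and Junb (13.6% of all windows). Its first base lay at -33 from the annotated start in Fos and at 1, not before the start, in Junb. The Egr site was found in Fosb and Zfp36 (5.6%), and TGANTCA in 0 of the 8 (7.8%). In Ier3 and Jun these letters did not occur within the window. The windows were not matched for base composition, and a match is a description of the letters only. Letters beyond the windows were not read, so a gene without a match here can hold the motif farther away.

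Before the members are described, 1 mouse has to be named. Losartan mouse 3 had the highest summed level of the fat marker list (7 genes with a probe set, 3 past the level filter), 14.83 on the log2 scale, against 9.74 to 12.80 in the aliskiren mice and 9.69 to 10.29 in the other losartan mice. Adipoq, Cidec, Lep and Ucp1 lay below the level filter on average. It also had the highest level of the fibroblast and smooth muscle list, at 13.88 (others 10.84 to 12.70), and of the macrophage and myeloid list, at 13.59 (others 10.87 to 13.07). Neutrophil markers lay below the level filter in all 5 measured genes. The proximal tubule list, the bulk of the cortex, was past the filter in 10 of 10 genes. Losartan mouse 3 had its lowest level of the 10 mice, at 16.25. The list lay between 16.45 and 16.58 in aliskiren mice and between 16.52 and 16.69 in the other losartan mice. Losartan mouse 3 was the highest of the 10 mice for 6 of the 9 tested members, so values without it are given beside the members' differences. The part of these cells in the members' levels was not tested.

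The tested members differed between mice by up to 5.03-fold, and no member passed the test between the drugs. With limma and Benjamini-Hochberg adjustment, 0 of 9 members and 0 of all 11486 genes (0%) had an adjusted p under 0.05. An ordinary t statistic without moderation gave 0 as well. At an unadjusted p under 0.05 there were 2 members, Ier3 and Ier2, both lower with aliskiren with all mice, where 4.72% of all genes (542) reached that level, 2.53% with a lower and 2.19% with a higher value. Of the 9 members 7 had a lower mean with aliskiren, beside 53.8% of all genes, and the median difference was -0.11 on the log2 scale, beside -0.01 over all genes. The count of lower means depended on single mice. It was 6 of 9 without losartan mouse 3, beside 50.6% of all genes, at a median difference of -0.04, and 4 of 9 without aliskiren mouse 4, at a median of 0.01. With array weights it was 3 of 9, at a median of 0.01. Which members reached an unadjusted p under 0.05 changed as well: without losartan mouse 3 they were Ier3 and Junb, which was higher with aliskiren. In 0 of 9 members did the groups separate without overlap (0.914% of all genes). In bulk tissue, fewer cells that make an mRNA and less of it per cell cannot be told apart.

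**Figure D1:**
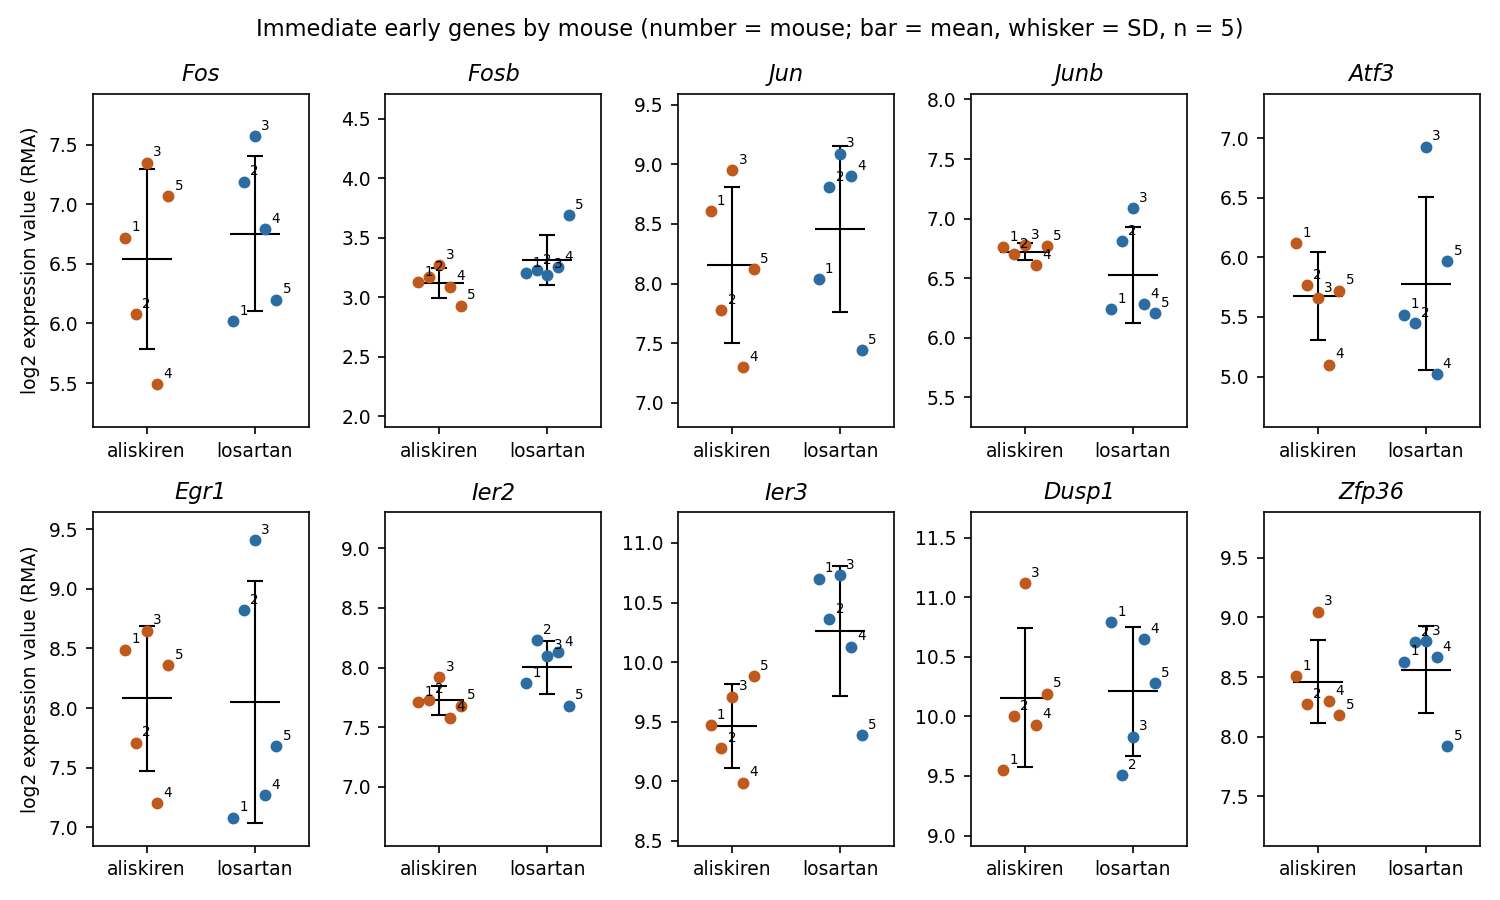
Log2 expression value of each of the 10 members in every mouse, aliskiren on the left and losartan on the right of each panel. Points are mice with their number, the bar is the mean and the whisker the SD (n = 5); every panel spans the same height on the log2 scale. For Ier3 4 losartan mice lie above all 5 aliskiren mice, and for Junb the aliskiren mice lie close together.

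Ier3 had the widest difference of the set. It encodes a short-lived stress-induced protein that acts on cell survival and on NF-kB signalling. Its log2 values were 9.47, 9.28, 9.71, 8.99 and 9.88 in aliskiren mice 1 to 5, against 10.70, 10.36, 10.73, 10.13 and 9.39 in losartan mice 1 to 5. Thus 4 losartan mice stood above every aliskiren mouse, while losartan mouse 5 fell among the aliskiren mice. The means were 9.46 ± 0.35 with aliskiren and 10.26 ± 0.55 with losartan (SD, n = 5 each), a difference of -0.80 (SE 0.26, 95% interval -1.37 to -0.22), or 0.575-fold. Limma gave an unadjusted p of 0.0111 and an adjusted p of 0.945, and the exact permutation test of this gene alone, two-sided over every assignment of the 10 mice to the drugs, gave p = 0.0397. The smallest p that this design allows is 0.00794. The difference was -0.68 without losartan mouse 3, and without losartan mouse 5 it was -1.01 and the groups no longer overlapped. Means were also lower with aliskiren for 7 of 8 collecting duct markers (8 without losartan mouse 3), at a median difference of -0.27 (-0.24 without it), and no marker passed limma's threshold after adjustment. At an unadjusted limma p under 0.05 there were 4 of the 8 (Scnn1b, Scnn1g, Atp6v1b1 and Foxi1), where 4.72% of all genes reached that level. The summed level of the collecting duct markers lay between 11.61 and 12.39 in aliskiren mice and between 12.10 and 12.53 in losartan mice. Endothelial markers were lower in 7 of 7 (6 without losartan mouse 3; medians -0.27 and -0.19), and 1, Flt1, reached that unadjusted level. Their summed levels were 10.15 to 10.57 in aliskiren mice and 10.06 to 10.81 in losartan mice. Fibroblast and smooth muscle markers were lower in 7 of 8 (1 without losartan mouse 3; medians -0.23 and 0.22). Macrophage and myeloid markers went the other way, with 1 of 9 lower (0 without that mouse; medians 0.06 and 0.55). Lymphocyte markers were lower in 0 of 2, with or without that mouse. Proximal tubule markers were lower in 6 of 10 (7 without it; medians -0.04 and -0.13). For loop of Henle and distal tubule it was 4 of 8 (5 without that mouse). Of these 8, 2 reached an unadjusted limma p under 0.05, in opposite directions: Slc12a3 at -0.57 and Cldn10 at 0.35. Podocyte markers were lower in 3 of 3 (2 without that mouse). These counts of lower means stand beside 53.8% of all genes, and 50.6% without that mouse. The part of these cells in the Ier3 difference was not tested.

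Ier2, whose product is a small nuclear protein of the same early response, had the other difference at that level. Values were 7.71, 7.73, 7.92, 7.58 and 7.68 in aliskiren mice 1 to 5 and 7.87, 8.23, 8.10, 8.13 and 7.68 in losartan mice 1 to 5. Losartan mice 2, 3 and 4 were above all aliskiren mice, and losartan mice 1 and 5 were within their range. The difference was -0.28 (SE 0.11), with an unadjusted limma p of 0.0274, an adjusted p of 0.945 and an exact permutation p of 0.0714. It was -0.25 without losartan mouse 3, with an unadjusted limma p of 0.053. Its 95% interval, from 0.7-fold to 0.974-fold, lay within 1.5-fold in both directions, as did those of Junb and Zfp36. That held for 3 of 9 members and for 87.7% of all genes tested. For the other 6 members a difference of 1.5-fold in at least 1 direction lay within the interval.

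**Figure D2:**
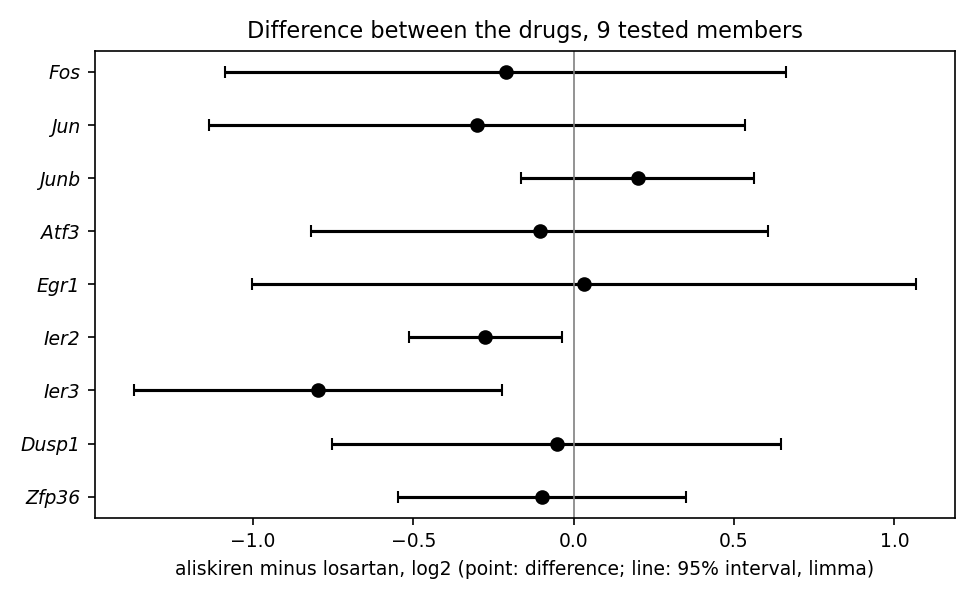
Difference in log2 expression, aliskiren minus losartan, for the 9 tested members, as points with the 95% confidence interval from limma. The intervals of Ier3 (-1.37 to -0.22) and Ier2 lie below 0, and that of Egr1 is the widest, from -1.0 to 1.07.

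The AP-1 genes showed wide ranges in both groups. Fos, which encodes the partner that Jun proteins need for their most active dimer, stood at 6.72, 6.08, 7.35, 5.49 and 7.07 in aliskiren mice 1 to 5 and at 6.02, 7.19, 7.57, 6.79 and 6.20 in losartan mice 1 to 5. The groups overlapped over nearly their whole range, with the lowest value in aliskiren mouse 4 and the highest in losartan mouse 3. The difference was -0.21 (SE 0.39, adjusted p = 0.976 by limma), and -0.01 without losartan mouse 3. Jun, the central AP-1 subunit, stood at 8.61, 7.78, 8.95, 7.30 and 8.12 with aliskiren and at 8.04, 8.81, 9.09, 8.90 and 7.44 with losartan, mice 1 to 5 each. Aliskiren mouse 4 was again the lowest and losartan mouse 3 the highest of all, with a difference of -0.30 (SE 0.38, adjusted p = 0.96 by limma), and -0.14 without that losartan mouse. A further Jun probe set had r = 0.98 with this one over 10 mice and differed by -0.19. Aliskiren mouse 4 was the lowest there too, at 6.97. Losartan mouse 3, at 8.23, was not the highest there: aliskiren mouse 3 (8.37) and losartan mice 2 (8.27) and 4 (8.36) stood above it.

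Junb, whose product is a weaker activator than Jun, lay close together in the aliskiren mice and was more spread out in the losartan mice. It stood at 6.76, 6.70, 6.78, 6.61 and 6.77 in aliskiren mice 1 to 5, against 6.24, 6.81, 7.09, 6.28 and 6.21 in losartan mice 1 to 5. All aliskiren values lay inside the losartan range, with 3 losartan mice below and 2 above them. The means were 6.72 ± 0.07 with aliskiren and 6.52 ± 0.40 with losartan (SD, n = 5 each), a difference of 0.20 (SE 0.16, adjusted p = 0.949 by limma). Without losartan mouse 3 it was 0.34, with an unadjusted p of 0.0159 and an adjusted p of 0.947 by limma. The difference in spread was not tested, and Junb was singled out after its values were seen. Atf3, a stress-induced relative that can repress its targets, had 6.12, 5.77, 5.66, 5.10 and 5.72 with aliskiren and 5.52, 5.45, 6.93, 5.02 and 5.97 with losartan. Its mean of 5.73 was close to the filter, and losartan mouse 3 was the highest. The Atf3 difference was -0.11 (SE 0.32, adjusted p = 0.989 by limma) and turned to 0.18 without that mouse.

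Fosb, a further AP-1 subunit gene, was below the filter in every mouse and was not tested. It lay between 2.93 and 3.27 with aliskiren (median 3.13) and between 3.19 and 3.69 with losartan (median 3.23). The highest value was that of losartan mouse 5, whose Fos and Jun values were among the lower ones.

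Egr1 had the widest range of the set. This zinc finger factor binds GC-rich promoters and is induced along with Fos. It stood at 8.49, 7.71, 8.65, 7.20 and 8.36 in aliskiren mice 1 to 5 and at 7.08, 8.82, 9.41, 7.27 and 7.68 in losartan mice 1 to 5. Both ends of the range, from 7.08 in mouse 1 to 9.41 in mouse 3, were losartan mice. The difference was 0.03 (SE 0.47, adjusted p = 0.996 by limma), and 0.37 without losartan mouse 3.

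The genes for the inhibitors of the response, Dusp1 and Zfp36, were highest in aliskiren mouse 3. That mouse also had the highest fat marker level among the aliskiren mice, 12.80 against 9.74 to 10.99 in the other 4, and the part of this in both genes was not tested. In losartan mouse 3, with a still higher fat level, Dusp1 was below its mean and Zfp36, at 8.80, was above its mean. Dusp1 encodes a phosphatase that inactivates MAP kinases. It stood at 9.55, 10, 11.12, 9.93 and 10.19 in aliskiren mice 1 to 5 and at 10.79, 9.51, 9.83, 10.65 and 10.28 in losartan mice 1 to 5, a difference of -0.05 (SE 0.32, adjusted p = 0.995 by limma), and -0.15 without losartan mouse 3. The groups overlapped, and aliskiren mouse 3 alone stood above all losartan mice. Zfp36 encodes tristetraprolin, which binds AU-rich mRNAs, including those of cytokines, and speeds their decay. Its values were 8.51, 8.27, 9.05, 8.30 and 8.18 with aliskiren and 8.63, 8.79, 8.80, 8.67 and 7.92 with losartan, mice 1 to 5 each. Losartan mouse 5 stood apart below its group, and the difference was -0.10 (SE 0.20, adjusted p = 0.979 by limma), and -0.04 without losartan mouse 3.

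Within the drug groups the members varied more than most genes. Their median SD within a drug was 0.56 on the log2 scale, against 0.14 over all 11486 genes. Of the 9 members 6 were in the top 10% of all tested genes for this SD: Egr1 at 0.84, Fos at 0.71, Jun at 0.67, Atf3 at 0.57, Dusp1 at 0.56 and Ier3 at 0.46. Leaving out losartan mouse 3 there were 7, with Zfp36 at 0.37 added. Ier2, at 0.18, was at the 64.6th percentile, the lowest of the 9 members.

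Fos, Jun, Junb, Egr1, Atf3, Ier2, Ier3 and Zfp36 had pairwise correlations above 0 with all mice. The 28 pairs among these 8 genes had a median Pearson r of 0.56, between 0.05 and 0.88, and 2 of them, Atf3 with Ier2 and with Zfp36, had a Spearman rho below 0. Without losartan mouse 3 the median was 0.43 and 6 of the 28 were below 0. These were Atf3 with Jun (-0.07), Ier2 (-0.40), Ier3 (-0.21) and Zfp36 (-0.30), and Junb with Ier2 (-0.02) and Ier3 (-0.25). The 8 pairs with Dusp1 lay between -0.48 and 0.25, with a median of 0.00. In all, 36 pairs were computed. Of these 4 had an adjusted permutation p under 0.05 by both Pearson's r and Spearman's rho (100000 resamples, two-sided, Benjamini-Hochberg over the 36 pairs), and 0 of the pairs with Dusp1 did. Whether Dusp1 correlates less than the others was not tested. These genes share arrays, normalization and tissue makeup.

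Fos and Jun had r = 0.88 (permutation p = 0.0017, adjusted p = 0.0291) and rho = 0.89 (permutation p = 0.00135, adjusted p = 0.0243). Without aliskiren mouse 4 and losartan mouse 3, the ends of the Fos range, r was 0.78. For Fos and Egr1 r was 0.85 (permutation p = 0.00243, adjusted p = 0.0291) and rho 0.87 (permutation p = 0.00207, adjusted p = 0.0248), with r = 0.78 without the same mice. Junb and Egr1 had r = 0.85 (permutation p = 0.00145, adjusted p = 0.0291) and rho = 0.90 (permutation p = 0.00079, adjusted p = 0.0243), and r was 0.87 without losartan mice 1 and 5. Jun and Zfp36 had r = 0.84 (permutation p = 0.00323, adjusted p = 0.0291) and rho = 0.83 (permutation p = 0.00465, adjusted p = 0.0418), and r was 0.79 without aliskiren mouse 4 and losartan mouse 5. As deviations from the drug means the 4 values were 0.87, 0.87, 0.90 and 0.83, so these relations held within the drugs. A batch such as a scan date is not given in the sources used here.

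**Figure D3:**
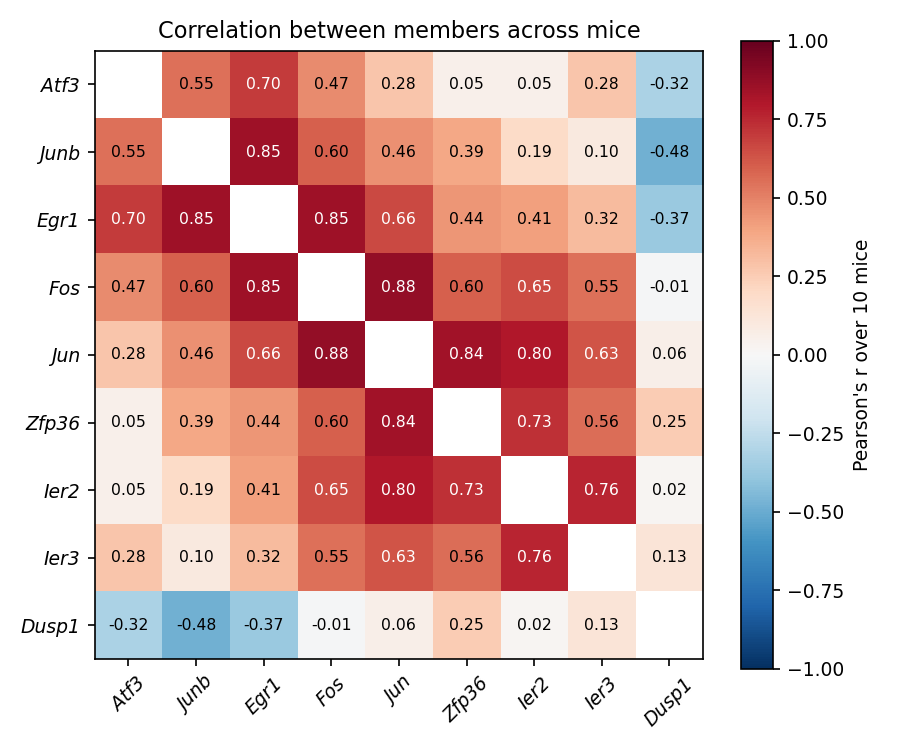
Pearson's r over the 10 mice for each pair of the 9 tested members, from -1 (blue) to 1 (red), with the value in each cell. Fos and Jun have the highest value, 0.88, and the row of Dusp1 runs from -0.48 to 0.25.

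By mouse, the shared pattern ran from aliskiren mouse 4, where 0 of 9 members lay above their own mean and 4 had their lowest value, to losartan mouse 3, where 8 of 9 lay above it. Only Dusp1 was below its mean in losartan mouse 3. In aliskiren mouse 3 and losartan mouse 2 there were 7 of 9 members above their mean, and in aliskiren mouse 2 and losartan mouse 5 there were 2 of 9. High and low mice were thus found with both drugs. Over all 36 pairs the median r was 0.45, and 0.30 without losartan mouse 3. As deviations from the drug means it was 0.56.

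Genes outside the set were ranked by Pearson's r, over the 10 mice, with the mean z-score of the 9 tested members, among 11477 genes. The 5 with the highest r were Klf10 and Bcdin3d (0.92 each), 4930445K14Rik and Klhl28 (0.90 each) and Ager (0.89). Klf10, a Krüppel-like factor gene induced early by TGF-beta, is also in the list of other immediate early genes. It stood at 8.03, 7.63, 8.06, 7.54 and 7.97 in aliskiren mice 1 to 5 and at 8.02, 8.39, 8.63, 7.88 and 7.68 in losartan mice 1 to 5. Its r was 0.87 without losartan mouse 3. An r of at least 0.8 was reached by 90 genes. For Ier3 alone the 5 nearest genes were Rnf25 (0.91), Tnks (0.88), Zfp597 (0.86), Atp6v1f (0.85) and Cyp2d22 (0.84). As deviations from the drug means, in the same order, r was 0.83, 0.83, 0.97, 0.69 and 0.74.

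Readouts of tubular injury were set beside the members. Havcr1, which encodes KIM-1, stood at 9.37, 8.53, 6.08, 6.57 and 7.82 in aliskiren mice 1 to 5 and at 7.23, 8.69, 10.76, 6.22 and 5.41 in losartan mice 1 to 5. Lcn2, which encodes neutrophil gelatinase-associated lipocalin, stood at 8.55, 8.07, 7.27, 6.40 and 7.03 with aliskiren and at 6.89, 8.25, 10.19, 5.69 and 4.96 with losartan. Both were highest in losartan mouse 3 and lowest in losartan mouse 5. Of 27 relations between the 9 members and Havcr1, Lcn2 and the keratin gene Krt19, 24 were above 0, and the 3 below 0 were those of Dusp1. Only Junb with Lcn2 had an adjusted permutation p under 0.05 by Pearson's r, at r = 0.86 (permutation p = 0.00137, adjusted p = 0.037), but not by rank, with rho = 0.83 (permutation p = 0.00472, adjusted p = 0.114). Without losartan mice 3 and 5 this r was 0.69, and as deviations from the drug means it was 0.89.

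Egr1 with Lcn2 had r = 0.76 (permutation p = 0.0104, adjusted p = 0.107) and rho = 0.79 (permutation p = 0.00841, adjusted p = 0.114), and 0.68 without losartan mice 3 and 5. Dusp1 with Havcr1 had r = -0.67 (permutation p = 0.036, adjusted p = 0.14) and rho = -0.77 (permutation p = 0.0128, adjusted p = 0.115), and -0.80 without those mice. These 2 relations did not pass after adjustment. The median r of the 27 was 0.49, and it was -0.02 when the 2 farthest mice of each injury gene were left out. Single relations did not all weaken: Atf3 with Lcn2 went from 0.67 to 0.81, while Fos with Krt19 went from 0.49 to -0.26. Leaving out the ends of a range can by itself bring r nearer to 0, so how far the relations rested on those mice cannot be read from this.

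**Figure D4:**
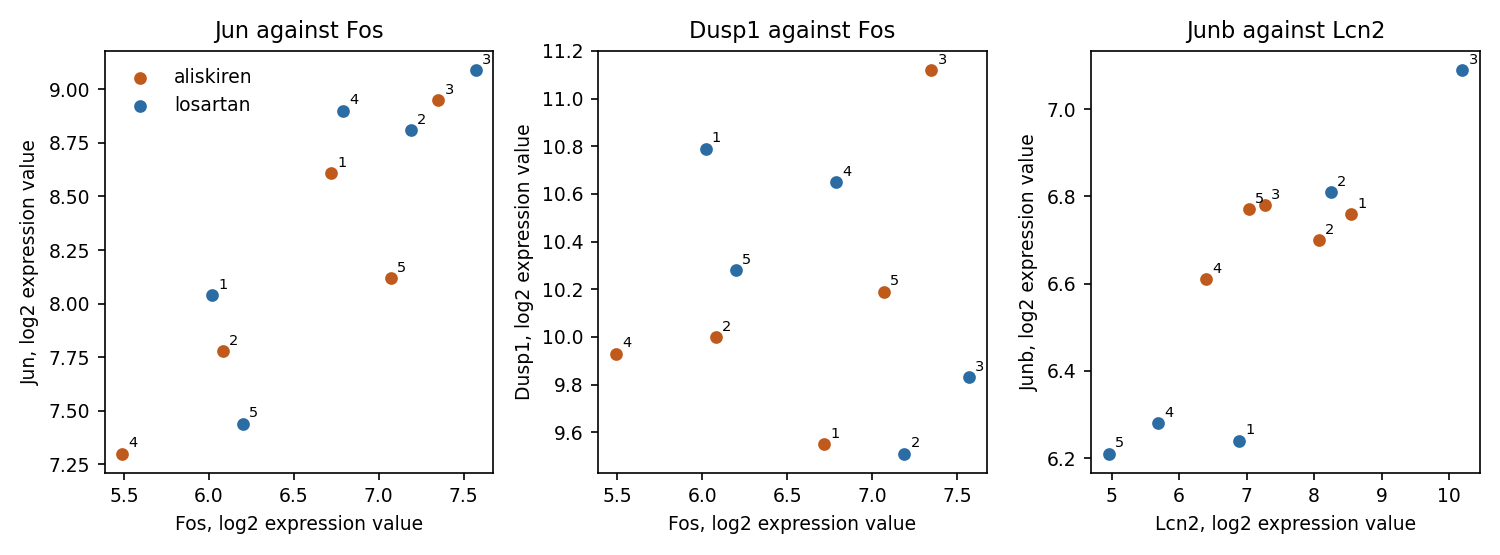
Log2 expression values in the 10 mice: Jun against Fos (left), Dusp1 against Fos (middle) and Junb against Lcn2 (right), with aliskiren mice in orange and losartan mice in blue, numbered by mouse. Jun rises with Fos (r = 0.88), Dusp1 does not (r = -0.01), and Junb is highest in losartan mouse 3, which is also highest for Lcn2.

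Other genes of the pathway were counted by role, and none passed limma's threshold after adjustment. Counts of lower means in these lists stand beside 53.8% of all genes, and 50.6% without losartan mouse 3. Of 13 tested ligands and receptors upstream, 10 had a lower mean with aliskiren, and 1 reached an unadjusted p under 0.05: Erbb2, a receptor tyrosine kinase of the EGF receptor family, at -0.24 (SE 0.08, unadjusted p = 0.0111). That count was 6 of 13 without losartan mouse 3. Hbegf, a ligand of the EGF receptor, was at -0.27 (SE 0.19) and Erbb3 at 0.17 (SE 0.12). Of 15 kinases and inducing factors, 10 were lower, 0 at that level, with the serum response factor gene Srf at 0.15 (SE 0.07), the JNK gene Mapk8 at -0.15 (SE 0.10) and Creb1 at -0.14 (SE 0.09). The 15 are those with a probe set here.

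Of 33 tested immediate early genes outside the set, 25 had a lower mean with aliskiren, at a median difference of -0.13, beside 53.8% and -0.01 over all genes. Their count was 15 of 33 without losartan mouse 3, and the median turned to 0.02. Gadd45g, a stress-induced gene of growth arrest, was the only 1 of them at an unadjusted p under 0.05. It stood at 8.40, 7.73, 7.86, 8.25 and 7.69 in aliskiren mice 1 to 5 and at 9.25, 8.71, 9.23, 9.33 and 7.87 in losartan mice 1 to 5. As for Ier3, 4 losartan mice were above all aliskiren mice and losartan mouse 5 was not. The Gadd45g difference was -0.89 (SE 0.28, unadjusted p = 0.00837 and adjusted p = 0.945 by limma), and -0.81 without losartan mouse 3. Nr4a2, an orphan nuclear receptor gene, was at -0.13 (SE 0.06) and Klf2, a flow-responsive factor of endothelium, at -0.38 (SE 0.23).

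Of 12 tested feedback inhibitors of MAP kinase signalling and mRNA decay, 9 had a higher and 3 a lower mean with aliskiren, at a median difference of 0.04. Lower means were found in 53.8% of all genes. Without losartan mouse 3 the lower ones were 1 of 12, at a median of 0.08, beside 50.6% of all genes. The median of the other immediate early genes was then above 0 as well, at 0.02. Dusp1 and Zfp36, inhibitors among the members and not in this list, were at -0.05 and -0.10 with all mice. Dusp4, a nuclear MAP kinase phosphatase gene, was at 0.28 (SE 0.13), Errfi1, an inhibitor of the EGF receptor, at 0.15 (SE 0.12) and Spred1 at 0.10 (SE 0.08), and 0 reached an unadjusted p under 0.05. Of 12 tested leucine zipper partners 7 were lower (4 without losartan mouse 3), 0 of them at that level, with Ddit3 at -0.25 (SE 0.11), Atf4 at -0.20 (SE 0.10) and Atf5 at -0.35 (SE 0.29). Atf5 was at -0.05 without losartan mouse 3. Of the mRNAs known as tristetraprolin targets, 5 of 12 were past the filter, and 4 of these 5 were lower (1 without losartan mouse 3). Cxcl1 was at -0.30 (SE 0.43), Plaur at -0.14 (SE 0.20) and Il1b at 0.13 (SE 0.15), and without losartan mouse 3 Cxcl1 turned to 0.15 and Plaur to 0.07.

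Glucocorticoids also induce Dusp1 and Zfp36, so genes of that response were counted too. Of 10 tested genes 7 were lower with aliskiren, also without losartan mouse 3, at a median difference of -0.31 (-0.16 without that mouse), and 0 reached an unadjusted p under 0.05. Tsc22d3, a classic glucocorticoid target, was at -0.51 (SE 0.27), the clock gene Per1 at -0.49 (SE 0.27) and the metallothionein gene Mt1 at -0.33 (SE 0.18). Of 10 tested heat shock genes 7 were higher, with the chaperone gene Hsp90aa1 at 0.26 (SE 0.11, unadjusted p = 0.0326), Hspd1 at 0.15 (SE 0.08) and Hspe1 at 0.09 (SE 0.07). Of 11 tested injury genes 6 were lower (3 without losartan mouse 3), with Krt19 at -1.10 (SE 0.48, unadjusted p = 0.0427), Krt18 at -0.63 (SE 0.37) and Clu at -0.38 (SE 0.29). Without losartan mouse 3 these 3 differences were -0.63, -0.25 and -0.11. Other injury genes had higher means with aliskiren, and Cd44 and Vcam1 are named after their values were seen: Cd44 was at 0.39 (SE 0.86), Lcn2 at 0.27 (SE 0.89) and Vcam1 at 0.19 (SE 0.83), and Havcr1 was at 0.01 (SE 0.99). Leaving out losartan mouse 3 gave a list median of 0.42 (-0.01 with all mice), with Lcn2 at 1.02 and Havcr1 at 0.79.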

How the data were processed

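Arrays were summarised by the authors to log2 values with RMA, and the submitters' processing notes name Expression Console 1.1 from Affymetrix. Per the labels' protocols, 100 ng of total RNA went into each biotinylated cRNA. RMA brings all arrays to a common distribution, so an overall difference in RNA amount cannot be seen in them. Of 45101 probe sets, 64 controls were left out. Of the rest, 34945 had 1 gene symbol in the platform annotation, 932 had several and 9160 had none. Gene identifiers of 34741 were found in RefSeq's table. No depth is defined for arrays.

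Genes were named from probe sets with 1 symbol and represented by the one of highest mean. Aliskiren was compared with losartan by limma 3.58.1 in R 4.3.3 (lmFit, eBayes, two-sided, drug as the only term, Benjamini-Hochberg over all genes tested). The exact permutation test over mice was run for single members. The fit was tested on simulated data. The labels number mice within each group, and 1 array stands for 1 mouse.

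Members, lists and alternatives were chosen with earlier results of these data known. Named genes are the members, up to 3 genes of smallest p per list, Havcr1, Lcn2, Krt19 and the genes nearest in pattern to the members and to Ier3. Alternatives covered the level filter, probe set choice, scaling, variance model, array weights, mouse number as a block and leaving out mice. Counts per list, the members' spread and the signs of their correlations without losartan mouse 3 were added after the data were seen. Promoters are RefSeq's, and Egr1 and Ier2 are given without one. Figures were drawn with matplotlib 3.10.9.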

Additional observations from a re-analysis of the deposited data

Results flagged for a closer look

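Within 5 mice of a drug, a value was singled out when its gap to the nearest other mouse exceeded 0.71 of the group's range, which chance gives in about 1 of 20 groups. Among 98 groups (49 genes in 2 drug groups) 10 such values were found. The 49 are the named genes, chosen as members, by p, as injury readouts or by pattern, and all were measured in the same mice. The 10 values can therefore not be judged against that share. Members accounted for 2 of them, both in losartan mouse 5: Zfp36 at 7.92 (other losartan mice 8.63 to 8.80) and Fosb at 3.69 (others 3.19 to 3.25), where Fosb lay below the level filter. The same mouse had Atp6v1f at 12.24 (others 12.30). That gene was chosen for its likeness to Ier3, which was also lowest of the losartan mice in mouse 5, at 9.39.

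Losartan mouse 3 held 6 of the 10: Atf5 at 8.32 (other losartan mice 6.57 to 7.05), Plaur at 7.18 (6.03 to 6.29), Cxcl1 at 9.60 (6.91 to 7.64), Krt19 at 9.07 (6.32 to 7.06), Krt18 at 9.79 (7.65 to 8.18) and Hspd1 at 12.68 (13.00 to 13.11). In aliskiren mouse 4, the lowest mouse for Fos, Jun, Ier2 and Ier3, Atf4 stood at 10 (other aliskiren mice 10.37 to 10.51).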

How the results depend on the processing

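No alternative gave a member or any gene an adjusted p under 0.05, and the differences of Ier3, Ier2, Jun and Junb kept their sign under all that were run. With array weights the differences of Fos, Atf3, Dusp1 and Zfp36 turned to 0.08, 0.03, 0.01 and 0.01. Without losartan mouse 3 and aliskiren mouse 1 together those of Atf3 and Dusp1 turned to 0.07 and 0.01. When each mouse was left out in turn, the difference ran from -0.41 to 0.05 for Fos, from -0.21 to 0.37 for Egr1, from -0.29 to 0.18 for Atf3 and from -0.29 to 0.10 for Dusp1. The cause was not tested. The number of members at an unadjusted p under 0.05 ran from 1 to 2 in this way (1 on leaving out aliskiren mouse 4, aliskiren mouse 5, losartan mouse 2 and losartan mouse 4), but not always for the same members. Ier2 gave way to Junb, higher with aliskiren, without losartan mouse 3 (unadjusted limma p of 0.053 and 0.0159), with array weights (0.0764 and 0.0204) and without losartan mouse 3 and aliskiren mouse 1 (0.081 and 0.03). The number whose groups do not overlap ran from 0 to 1, being Ier3 without losartan mouse 5. The members' median difference ran from -0.29 to 0.01 and their median pairwise r from 0.30 to 0.54. Same-numbered mice deviated from their drug means with correlations of -0.06, -0.23, -0.03, 0.42 and 0.23 over all tested genes. The losartan mouse nearest in these deviations had the same number for aliskiren mice 4 and 5, but not for aliskiren mice 1, 2 and 3. Whether the numbers pair the mice cannot be told from these values. With the mouse number as a replicate block 0 genes were called, 2 members had an unadjusted p under 0.05, and Ier3 had an unadjusted limma p of 0.0195.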

Other observations

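The inducible Hsp70 genes, which belong to the heat shock list but were named after their values were seen, had a pattern of their own. Hspa1a stood at 6.83, 7.12, 7.35, 8.20 and 8.50 in aliskiren mice 1 to 5 and at 7.27, 7.23, 7.36, 8.72 and 7.38 in losartan mice 1 to 5. Hspa1b stood at 10.06, 9.94, 10.25, 11.38 and 11.13 with aliskiren and at 9.83, 10.14, 10.59, 11.18 and 10.06 with losartan. Aliskiren mice 4 and 5 and losartan mouse 4 were above the other 7 mice for both genes. Hspa1a and Hspa1b are near-identical copies, so their separate values are uncertain. Aliskiren mouse 4, high for both, was the lowest mouse for Fos and Jun, but the other mice high for both were not. Fos stood at 7.07 in aliskiren mouse 5 and at 6.79 in losartan mouse 4, and Jun at 8.12 and 8.90. Over the 10 mice Hspa1a had r = -0.06 with Fos and -0.09 with Jun, and Hspa1b had -0.01 and -0.04.

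Ccn1, a matricellular immediate early gene also named after its values were seen, had r = 0.86 with Fos and 0.87 with Jun over the 10 mice, given as a description. The Ccn1 means were 8.96 ± 0.88 with aliskiren and 9.10 ± 0.70 with losartan (SD, n = 5 each).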
